A study of Arvicanthis niloticus with 59 samples.

Results

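The proteasome is the barrel-shaped protease that degrades ubiquitin-tagged proteins in every nucleated cell. Its genes were followed here in organs of Arvicanthis niloticus, the Nile grass rat. The 48 genes were all rows of the deposited table whose symbol begins with Psma, Psmb, Psmc, Psmd, Psme, Psmf or Psmg and ends in a number, out of 18970 genes listed. Symbols are printed in the mouse form that the table uses, and all 48 were found in the RefSeq gene table of this species (assembly mArvNil1.pat.X). The RNA-seq libraries numbered 59 and came from 48 sampled sites of 22 organs in 4 animals, which the labels call T3F (38 libraries), T173F (12), T426 (8) and T424 (1). The labels name no treatment, transgene, deletion or drug for any group, and they do not state the health of the animals. Neither age nor strain is given in the sources used here.

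The core particle is built of stacked rings of alpha and beta subunits, and 3 of its beta subunits cut proteins: Psmb6 (beta1, cutting after acidic residues), Psmb7 (beta2, after basic residues) and Psmb5 (beta5, after hydrophobic residues). Interferon-gamma and white blood cells bring in replacements, Psmb9 for Psmb6, Psmb10 for Psmb7 and Psmb8 for Psmb5. The resulting immunoproteasome is known for making peptides that MHC class I molecules present. Psmb11 takes the place of Psmb5 in the cortical epithelium of the thymus, and Psma8 takes the place of the alpha subunit Psma7 in male germ cells. A regulatory particle of ATPases (Psmc genes) and non-ATPases (Psmd genes) unfolds the substrate, the Psme genes encode other activators, Psmf1 an inhibitor, and the Psmg genes chaperones that assemble the core.

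The tissue classes compared were 3. The central nervous system (CNS) class held 10 libraries of 9 sites: hippocampus of T3F and T426, and rostral cortex, caudal cortex, thalamus and hypothalamus, midbrain, cerebellum, pons, medulla oblongata and proximal spinal cord of T3F. The intestine class held 7 libraries of 6 sites: jejunum, ileum and colon of T3F, cecum and rectum of T173F, and duodenum of T3F and T426. The blood-forming and lymphoid class held 5 libraries: bone marrow and spleen of T3F, thymus of T173F, and femur of T3F and T426. Sites of a class share animals, so p-values measure the spread among these libraries and not among independent animals. In whole organs, fewer cells of a type and less RNA per cell cannot be told apart.

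Library totals ran from 678819 expected counts in testis to 41309569, with a median of 16406604. They ran from 3006119 to 22095366 in the CNS, from 1691561 to 19705344 in the intestine and from 2553118 to 21018882 in the blood-forming class. Some libraries went against their labels. The library labelled liver of T3F had 32470 TPM of alveolar epithelium genes and 1072 TPM of hepatocyte genes, while that labelled left lung lobe of T3F had 13.2 TPM and 133200 TPM. Genes of male germ cells summed to 145000 TPM in testis, and also to 123400 TPM in retina, 45970 TPM in hippocampus, 22750 TPM in femur and 2015 TPM in sciatic nerve of T426. Acinar genes of the pancreas summed to 328400 TPM in the pancreas of T3F, to 1392 TPM in the pancreas of T173F and to 73350 TPM in the sciatic nerve of T426. The renal pelvis of T426 had 24070 TPM of hepatocyte genes, and the sciatic nerve of T3F 4467 TPM of acinar genes. Within the classes, neuron genes summed to at least 4534 TPM in each CNS library and enterocyte genes to at least 3005 TPM in each intestine library.

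Levels are given in TPM, a unit scaled by transcript length and library size in which genes can be compared. The constitutive catalytic genes Psmb5 and Psmb6 were among the highest of the 48, with medians over the 59 libraries of 330.9 TPM and 276.3 TPM. Psma7, an alpha ring subunit, had a median of 278.8 TPM, and Psmc3, an ATPase of the regulatory particle, 239.5 TPM. Psmb7 did not keep pace with its ring partners: its median was 0.540 TPM from 10.8 expected counts, 9 libraries were at 0, and only the sciatic nerve of T426 passed 10 TPM, at 13.1 TPM. The other beta ring genes ran from a median of 27.9 TPM (Psmb3) to 179.1 TPM (Psmb1). The reason for the low Psmb7 values was not tested, and shares that include Psmb7 therefore rest on Psmb5 and Psmb6.

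The replacement subunits were low in most organs. Psmb8 had a median of 2.39 TPM and was at 0 in 15 of the 59 libraries. Psmb9 had a median of 2.28 TPM with 4 libraries at 0, Psmb10 0.650 TPM with 10 at 0, and Psmb11 0.894 TPM with 21 at 0. The germ cell variant Psma8 had a higher median, 14.0 TPM, and was at 0 only in the liver of T426. The gene models differ in length, and this sets how many reads stand behind a level. Judged by expected counts per TPM, Psmb8 had 0.403 times the length of Psmb5, Psmb11 0.363 times, Psmb9 2.11 times and Psmb10 7.20 times, so that 1 TPM of Psmb8 rests on the fewest reads but for Psmb11 among these.

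**Figure D1:**
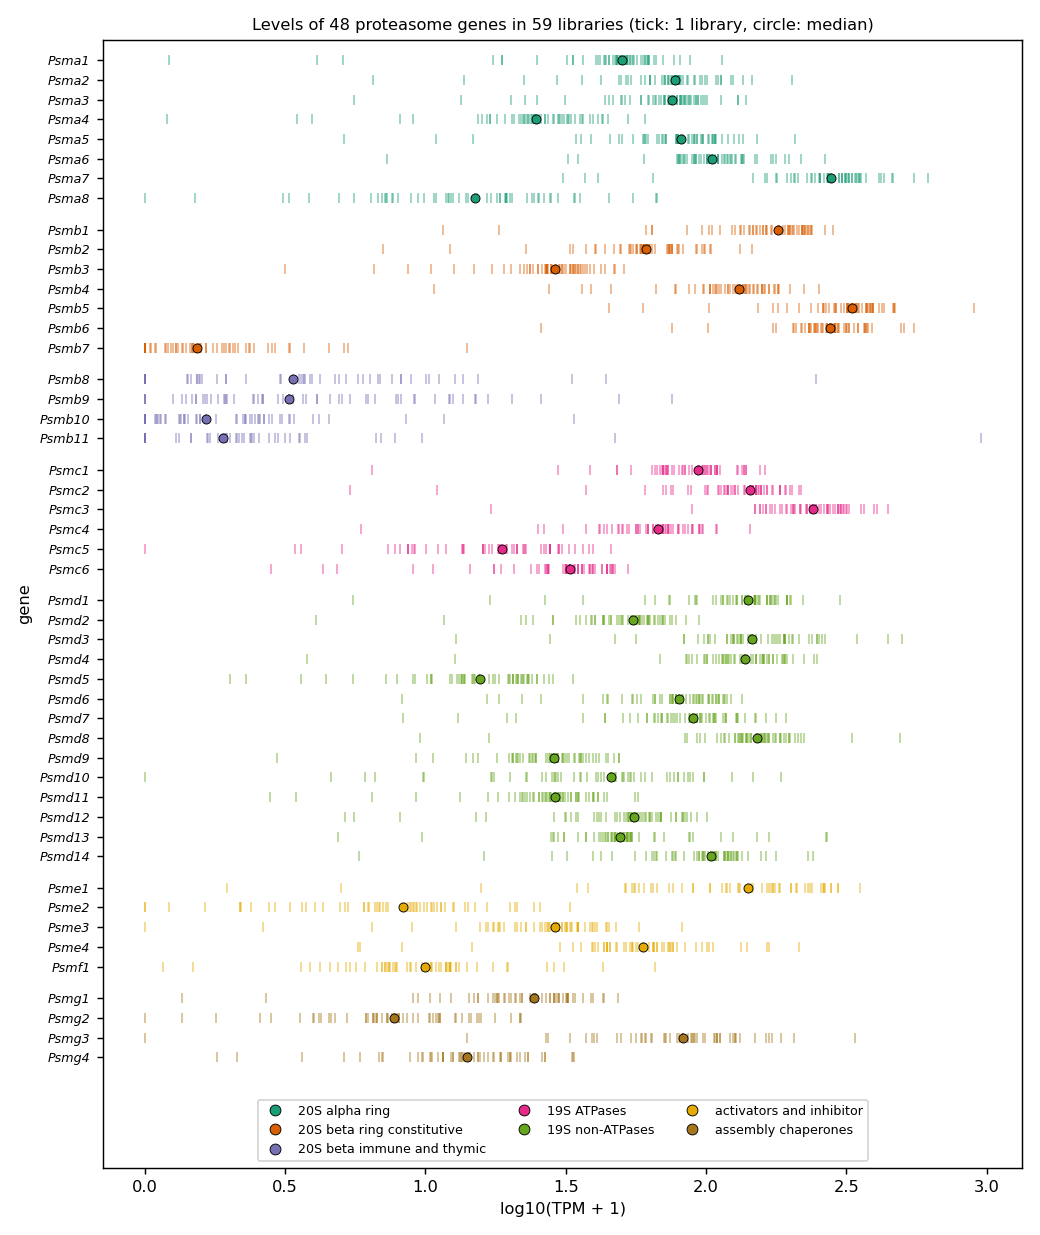
Levels of the 48 genes on the x axis as log10(TPM + 1), with genes on the y axis grouped by role; each tick is 1 of 59 libraries and each circle the median. Most genes cluster between 10 and 331 TPM, while Psmb7 to Psmb11 sit to the left with medians between 0.540 and 2.39 TPM.

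The 40 members with a median of at least 10 TPM, Psma8 among them, had a median SD of 0.83 on the log2(TPM + 1) scale over the 59 libraries, against 1.19 for the 8209 genes of the table above the same level. The other 8 members, Psmb7 to Psmb11, Psme2, Psmf1 and Psmg2, had a median SD of 1.05. The summed level of all 48 members had a median of 3888 TPM. It was highest in thymus at 7260 TPM, where Psmb11 adds to it, and next in the Harderian gland, a lipid-secreting gland behind the eye, at 6359 TPM. The Harderian gland held the highest values of Psmb5 (898.6 TPM, next 469.5 TPM in renal pelvis of T173F), of the alpha subunits Psma1, Psma2, Psma3, Psma5 and Psma6, and of the chaperone Psmg3 (338.8 TPM, next 204.4 TPM in duodenum of T426). The lowest sums were in the pancreas, at 354 TPM in T3F and 1166 TPM in T173F. Of the ATPases Psmc3 had the highest median and Psmc5 the lowest (17.7 TPM), and of the non-ATPases Psmd8 the highest (151 TPM) and Psmd5, a chaperone of the regulatory particle, the lowest (14.6 TPM).

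Single organs stood out for single regulatory genes. Psmd13, a lid subunit of the regulatory particle, had a median of 48.5 TPM but reached 269.6 TPM in skeletal muscle of T426, 266.3 TPM in brown fat, 166.8 TPM in right heart ventricle and 150.3 TPM in skeletal muscle of T3F. Psme4, which encodes the activator PA200, had its highest levels in right heart ventricle (213.4 TPM) and in skeletal muscle of T3F (166.1 TPM) and T426 (163.7 TPM), against a median of 58.8 TPM. Psmd1, a scaffold subunit, was highest in skeletal muscle of T426 at 299.6 TPM. Skeletal muscle and right heart ventricle thus held the top values of both Psmd13 and Psme4, apart from brown fat for Psmd13. The right atrium had 86.3 TPM of Psmd13, below the esophageal junction at 123.5 TPM.

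Differences among sites were tested at the 10 sites sampled in 2 animals each (femur, hippocampus, retina, duodenum, renal pelvis, liver, skeletal muscle, sciatic nerve, ovary and pancreas; 20 libraries, the left and right retina of T3F summed). Across all genes, 41.4% differed among these sites by edgeR's quasi-likelihood test at a Benjamini-Hochberg adjusted p below 0.05. Of the 47 members tested, 8 did: the replacement subunits Psmb8 (adjusted p = 0.00428), Psmb9 (adjusted p = 0.0358) and Psmb10 (adjusted p = 0.000964), the regulatory genes Psmd13 (adjusted p = 0.000825) and Psmd7 (adjusted p = 0.0323), the activators Psme1 (adjusted p = 0.04) and Psme4 (adjusted p = 0.0267), and the chaperone Psmg2 (adjusted p = 0.0478). None of the 8 alpha ring genes, the 7 constitutive beta ring genes or the 6 ATPases passed in this fit. This depended on the tool: DESeq2 called the alpha ring genes Psma5 and Psma7 and the ATPases Psmc5 and Psmc6. It also called the beta ring genes Psmb2, Psmb3, Psmb5, Psmb6 and Psmb7. Of the 8 members called by edgeR, only Psmd13 and Psme4 kept their calls with a block for the animal, without the 8 libraries in doubt and without both pancreas libraries. Psmb8 lost its call under the first and second of these, Psmb9 under the second and Psmb10 under the third, so that none of the replacement subunits held under all 3. The block left 4 members called (38.3% of all genes), omission of the libraries in doubt gave 10 (48.7%) and omission of both pancreas libraries 10 (51.9%). DESeq2 called 23 members and 62.3% of all genes, and without the pancreas of T3F alone 23 members and 70.2% of all genes were called. The count was 4 or 5, against 31.6% to 37% of all genes, without any 1 library of hippocampus, retina, duodenum, renal pelvis, skeletal muscle or sciatic nerve, the femur of T426 or the ovary of T3F. Psmd13 and Psmb8 kept their calls in every fit that left out 1 library, and Psmb10 in all but that without the pancreas of T3F. Psme4 lost its call without either library of hippocampus, duodenum, skeletal muscle or sciatic nerve, and without the renal pelvis of T173F.

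Values of the 2 animals lay close together for some of these genes and far apart for others. Psmd13 in skeletal muscle was 209.9 ± 84.4 TPM (SD, n = 2 animals), against 52.2 ± 1.07 TPM in hippocampus and 34.1 ± 9.18 TPM in sciatic nerve. Psme4 in skeletal muscle was 164.9 ± 1.68 TPM, and in retina 95.7 ± 6.90 TPM. Psme1, the alpha subunit of the interferon-responsive activator PA28, was 235.9 ± 1.88 TPM in renal pelvis (including the T426 library with hepatocyte genes), 235 ± 35.0 TPM in duodenum and 44.1 ± 14.8 TPM in retina. Psmb9 in liver was 7.85 ± 11.1 TPM, 15.7 TPM in the T3F library and 0 in T426. That pair is the one in which the library labelled liver of T3F carried lung genes.

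The immune catalytic share was computed as Psmb8 plus Psmb9 plus Psmb10 in percent of these 3 genes plus Psmb5, Psmb6 and Psmb7, in TPM. Its median over the 59 libraries was 0.954%, and 31 libraries were below 1%. Only 4 libraries were above 10%: pancreas of T173F (65.9%), pancreas of T3F (32.6%), thymus (14.4%) and spleen (13.9%). The next were the kidney artery of T3F (5.84%), the library labelled liver of T3F (5.19%), cecum (4.71%), bone marrow (4.33%) and the fat beside the adrenal gland (4.24%). The share was 0 in hippocampus, retina and liver of T426 and in testis, where none of the 3 replacement genes had a count. Hippocampus, retina and liver of T426 are shallow libraries, at 3006119, 2472766 and 2406956 expected counts. No detection limit was computed for them, so their 0 values do not show absence. In testis 0 counts of 678819 allow at most 4.42 CPM (counts scaled by library size; 3 counts), which is above the median level of these genes elsewhere, so their absence is not detectable at this depth.

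**Figure D2:**
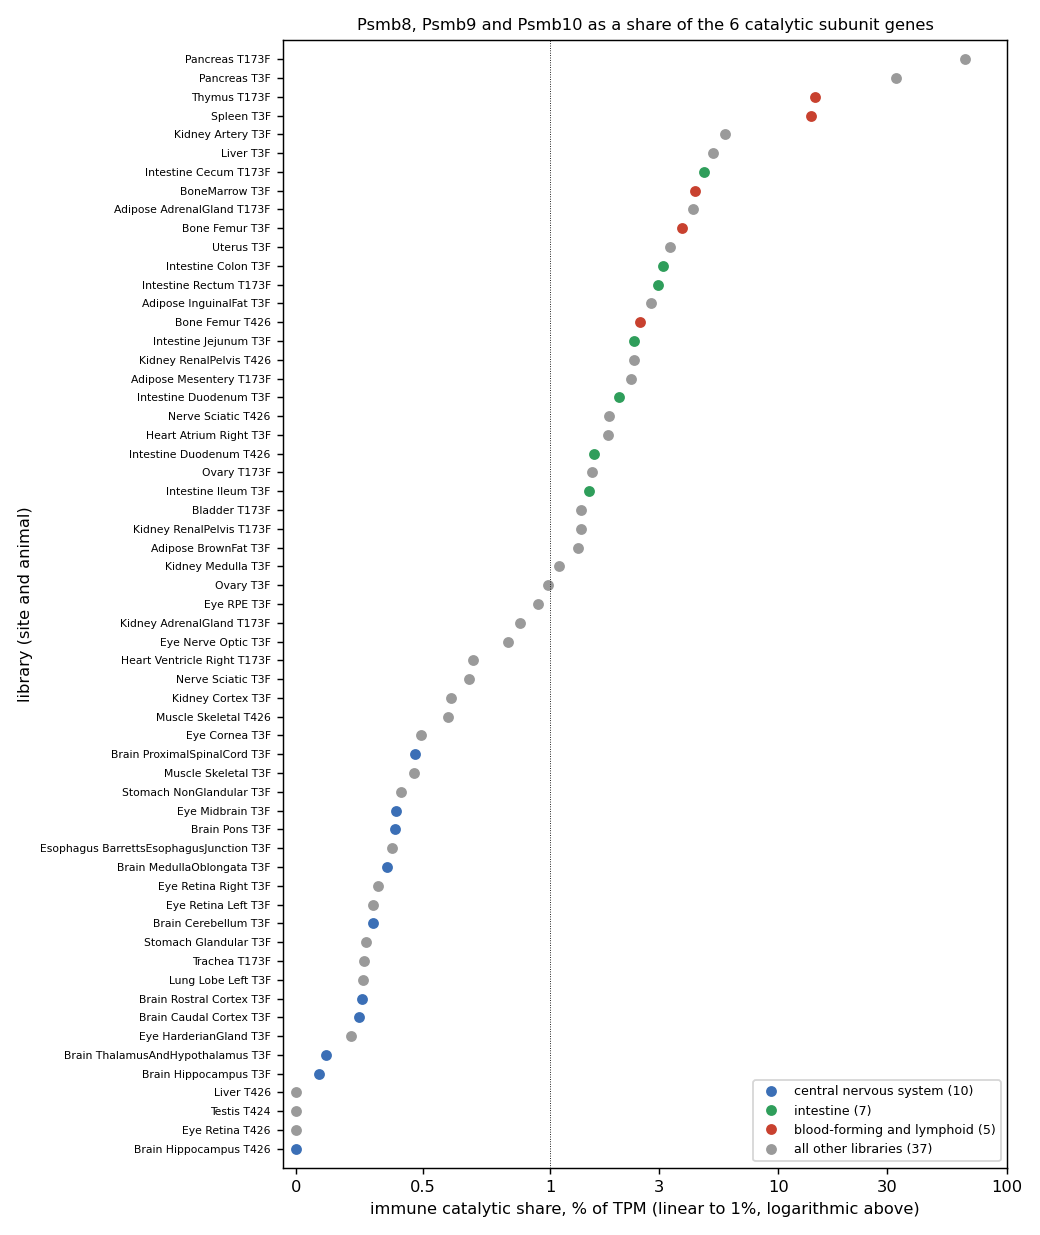
Immune catalytic share in percent of TPM (x axis, linear to 1% and logarithmic above) for each of 59 libraries (y axis, site and animal), coloured by tissue class; each point is 1 library and the dotted line marks 1%. All 10 CNS libraries lie below 1%, all 7 intestine libraries between 1.48% and 4.71%, and pancreas, thymus and spleen stand above 10%.

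In the brain and spinal cord the summed TPM of the catalytic genes came almost purely from the constitutive Psmb5 and Psmb6. The low pair of Psmb7 and its replacement Psmb10 had no constitutive excess, at CNS means of 0.567 TPM and 0.735 TPM. The share in the 10 CNS libraries was lowest at 0, with a median of 0.281% and a highest value of 0.468% in proximal spinal cord, a mean of 0.262 ± 0.151% (SD, n = 10). In the 7 intestine libraries it was lowest in ileum (1.48%), with a median of 2.34% and the highest value in cecum (4.71%), a mean of 2.60 ± 1.13% (SD, n = 7). The groups did not overlap. The difference of 2.33 percentage points had p = 0.000103 in an exact two-sided permutation test. Within T3F alone it was 1.94 points (2.24 ± 0.682% in 4 intestine libraries, 0.292 ± 0.127% in 9 CNS libraries; exact two-sided permutation p = 0.0028).

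In the blood-forming and lymphoid class the share was 14.4% in thymus, 13.9% in spleen, 4.33% in bone marrow, 3.78% in femur of T3F and 2.47% in femur of T426, a mean of 7.78 ± 5.87% (SD, n = 5). All 5 values lay above all 10 CNS values, with spleen and thymus well above the 3 bone and marrow libraries. The difference from the same CNS libraries was 7.52 points (exact two-sided permutation p = 0.000666). Within T3F it was 7.05 points (exact two-sided permutation p = 0.00909). Without spleen and thymus it was 3.26 points, still without overlap (exact two-sided permutation p = 0.00699). The sum of 6 leukocyte markers lay between 28.7 and 57.6 TPM in the CNS and between 31.7 and 424.5 TPM in the intestine, which overlapped. In the blood-forming class it lay between 147.9 and 2595 TPM. None of the 6 was at 0 throughout a class, and their part in the difference was not tested.

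Psmb9, the replacement for Psmb6, had the highest mean of the 3 replacement genes in each class, at 0.783 TPM in the CNS, 10.4 TPM in the intestine and 30.9 TPM in the blood-forming class. In the CNS it ran from 0 (hippocampus of T426) through a median of 0.792 TPM to 1.63 TPM in midbrain. In the intestine it ran from 3.11 TPM in ileum through a median of 8.12 TPM to 24.8 TPM in cecum. In the blood-forming class it was 74.3 TPM in thymus, 48 TPM in spleen, 12.6 TPM in bone marrow, 11.5 TPM in femur of T3F and 8.20 TPM in femur of T426. Every library of both classes lay above every CNS library. Against the CNS, Psmb9 was higher by 3.92 ± 0.420 (log2, SE) in the intestine (edgeR adjusted p = 1.85e-07) and by 5.59 ± 0.426 (log2, SE) in the blood-forming class (edgeR adjusted p = 3.42e-08). Such separation of a class above the CNS was seen for 11.1% of all genes tested in the intestine and 4.63% in the blood-forming class. Of the members tested it was seen for 2 of 46 in the intestine and 2 of 47 in the blood-forming class.

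Psmb8, the replacement for Psmb5, followed the same order at lower counts. In the CNS it was at 0 in 6 of 10 libraries and at most 0.532 TPM, from 4.26 expected counts in all. In the intestine it ran from 2.88 TPM in ileum through a median of 5.80 TPM to 11.7 TPM in cecum, from 80.3 expected counts. In the blood-forming class it was 43.0 TPM in thymus, 32.4 TPM in spleen, 10.2 TPM in femur of T3F, 6.58 TPM in bone marrow and 2.68 TPM in femur of T426. Neither class overlapped the CNS. The blood-forming difference was 6.44 ± 0.616 (log2, SE; edgeR adjusted p = 3.07e-07). Psmb8 passed the filter on low counts there through the blood-forming libraries alone, since no CNS library had more than 1.26 expected counts. The test therefore adds little to the levels given. Psmb8 was also called in the blood-forming class without that filter. In the intestine Psmb8 was left out by the filter on low counts, so the share of separated genes given above does not cover it. Without that filter it was higher by 4.88 ± 0.659 (log2, SE; edgeR adjusted p = 4e-06).

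Psmb10, the replacement for Psmb7, did not separate the classes. It ran from 0 through a median of 0.608 TPM to 1.67 TPM in the CNS, from 0 in cecum through 2.04 TPM to 2.97 TPM in the intestine, and from 0 in femur of T426 through 1.27 TPM in bone marrow to 3.55 TPM in thymus. The groups overlapped. The log2 difference from the CNS was 1.62 ± 0.718 (SE) in the intestine (edgeR adjusted p = 0.0523) and 1.56 ± 0.769 (SE) in the blood-forming class (edgeR adjusted p = 0.0917). With a block for the animal the differences were 2.12 (edgeR adjusted p = 0.0151) and 1.70 (edgeR adjusted p = 0.0448).

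The constitutive partners Psmb5 and Psmb6 differed far less, and their direction depended on the scale. Psmb5 ran from 283.7 through 345.4 to 392.8 TPM (lowest, median, highest) in the CNS and from 286.6 through 387.9 to 429.2 TPM in the intestine. In the blood-forming class it was 342.1 TPM in thymus, 315.6 TPM in femur of T3F, 273.5 TPM in spleen, 248.7 TPM in bone marrow and 193.8 TPM in femur of T426. The groups overlapped in both comparisons. On counts with TMM scaling, which sets the bulk of genes equal between libraries, Psmb5 was higher in the blood-forming class by 0.59 ± 0.241 (log2, SE; edgeR adjusted p = 0.0442), but on log2(TPM + 1) the difference was -0.34 (limma adjusted p = 0.133). In the intestine it was higher by 0.54 ± 0.167 (log2, SE; edgeR adjusted p = 0.00821) on counts and differed by 0.12 (limma adjusted p = 0.413) on log2(TPM + 1). The blood-forming value of Psmb5 was 0.21 without the femur of T426 (edgeR adjusted p = 0.348), and its call was lost in 12 of the 15 fits that left out 1 library and with DESeq2. Psmb6 gave 0.87 (edgeR adjusted p = 0.0127) and -0.13 (limma adjusted p = 0.597) in the blood-forming class, and 0.53 (edgeR adjusted p = 0.0236) and 0.06 (limma adjusted p = 0.757) in the intestine. Without the femur of T426 the blood-forming value of Psmb6 was 0.29 (edgeR adjusted p = 0.121), and without the duodenum of T426 the intestine value was 0.26 (edgeR adjusted p = 0.177), both with the call lost. Psmb6 was highest in duodenum of T426, at 552 TPM against 314.8 TPM for the next intestine library. Psmb7 had means of 0.567 TPM in the CNS, 1.02 TPM in the intestine and 0.417 TPM in the blood-forming class, with overlapping groups. On counts it was called higher in the intestine by at least 1 log2 unit, but not on log2(TPM + 1). Leaving out 1 library gave 0.869 to 1.53 (log2), with the call lost in 1 of 17 fits. In the blood-forming class Psmb7 was not called.

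**Figure D3:**
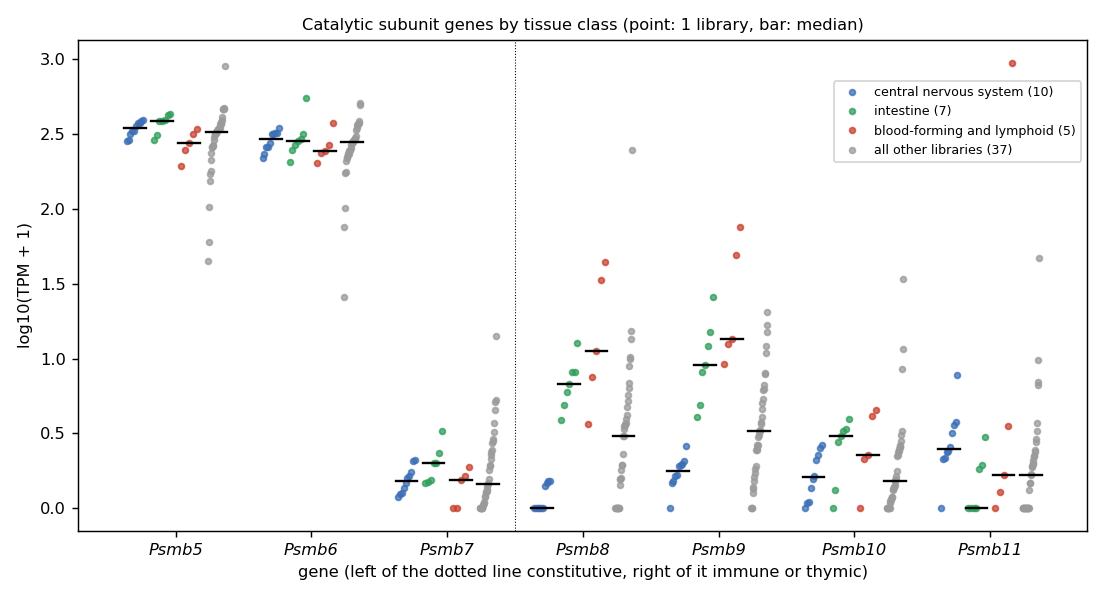
Catalytic subunit genes on the x axis and log10(TPM + 1) on the y axis; each point is 1 library, each bar the class median, and the dotted line separates constitutive from replacement subunits. Psmb5 and Psmb6 overlap between classes, while Psmb8 and Psmb9 of intestine and of the blood-forming class lie entirely above the CNS.

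The activator genes Psme1 and Psme2, whose products cap the core particle as PA28, went with Psmb8 and Psmb9. Psme1 ran from 50.5 through 61.0 to 117.1 TPM in the CNS and from 164.4 through 210.2 to 295.1 TPM in the intestine, with no overlap. In the blood-forming class it was 277.1 TPM in spleen, 255.8 TPM in thymus, 130.7 TPM in femur of T3F, 129.3 TPM in bone marrow and 102.6 TPM in femur of T426. That last library lay below midbrain, the highest CNS library, so these groups overlapped. The differences were 2.14 ± 0.198 (log2, SE; edgeR adjusted p = 3.02e-08) and 2.19 ± 0.232 (log2, SE; edgeR adjusted p = 8.9e-07). Psme2, at lower levels, had means of 4.41 ± 2.48 TPM (SD, n = 10) in the CNS, 11.4 ± 6.86 TPM (SD, n = 7) in the intestine and 14.6 ± 11.6 TPM (SD, n = 5) in the blood-forming class. It was higher by 1.71 (edgeR adjusted p = 0.000863) and 2.18 (edgeR adjusted p = 0.000285) on the log2 scale, with overlapping groups. The nuclear activator Psme3 depended on the scale in both classes: on counts it was higher by 0.30 in the intestine (edgeR adjusted p = 0.0464, lost in 14 of 17 fits that left out 1 library) and by 0.61 in the blood-forming class (edgeR adjusted p = 0.00357), and on log2(TPM + 1) it differed by -0.11 and -0.20 with no call.

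Of all genes tested, 71.1% differed between intestine and CNS, 35.2% being higher in the intestine and 35.9% lower (edgeR, adjusted p below 0.05). Of the 46 members tested 26 were higher and 2, Psmd5 and Psmd12, were lower. On log2(TPM + 1), where 23.5% of all genes were higher and 43.9% lower by limma, the members split into 8 higher and 11 lower. The median member differed by 0.41 (log2) on counts, against 0.01 for all genes, and by -0.02 on log2(TPM + 1), against -0.36. The members' median lay above that of all genes on both scales, and 6 of the 26 higher members had a value below 0 on log2(TPM + 1), none of them called lower. Higher on both scales were 8: Psmb9, Psme1, Psme2, the alpha subunits Psma1, Psma2 and Psma4, the beta subunit Psmb2 and the chaperone Psmg3. The share of all genes higher on both scales is not given, so this count has no background.

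By at least 1 log2 unit 5 members were higher and none lower (Psmb7, Psmb9, Psme1, Psme2 and Psmg3), against 52.2% of all genes, 24.8% higher and 27.4% lower. By role, 7 of 8 alpha ring genes, 6 of 7 beta ring genes and 4 of 5 activator and inhibitor genes were higher in the intestine on counts, against 1 of 6 ATPases, 6 of 14 non-ATPases and 1 of 4 chaperones. On log2(TPM + 1) the genes lower in the intestine were the ATPases Psmc1 and Psmc2, the non-ATPases Psmd1, Psmd2, Psmd4, Psmd5, Psmd6 and Psmd12, the inhibitor Psmf1, the chaperone Psmg1 and the germ cell variant Psma8. Psma2, for example, had means of 95.3 ± 17.2 TPM (SD, n = 7) in the intestine and 73.5 ± 8.15 TPM (SD, n = 10) in the CNS, while Psmd12, a lid subunit, had 44.4 ± 7.54 TPM and 75.1 ± 15.4 TPM. Psmg3 had 135.6 ± 38.9 TPM and 82.1 ± 14.2 TPM. The difference between roles was not tested.

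Between the blood-forming class and the CNS 60.8% of all genes tested differed, 31.2% being higher in the blood-forming class and 29.6% lower (edgeR, adjusted p below 0.05). Of the 47 members tested 26 were higher and none lower. On log2(TPM + 1), where 12.8% of all genes were higher and 43.4% lower by limma, 4 members were higher and 12 lower. The median member differed by 0.54 (log2) on counts, against 0.05 for all genes, and by -0.31 on log2(TPM + 1), against -0.73. Of the 26 members higher on counts, 16 had a value below 0 on log2(TPM + 1), none of them called lower. Higher on both scales were 4: Psmb8 and Psmb9, and the PA28 genes Psme1 and Psme2. The share of all genes higher on both scales is not given, so this count has no background. By at least 1 log2 unit 8 members were higher on counts and none lower (Psma7, Psmb8, Psmb9, Psmd9, Psme1, Psme2, Psmg2 and Psmg4), against 48.6% of all genes, 23.9% higher and 24.7% lower. The comparison shares its 10 CNS libraries with that of the intestine. Without the femur of T426, which carried germ cell genes, and the hippocampus of T426, 21 members were higher and 3 lower, 20 of them shared with the 26, and 65.2% of all genes were called.

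**Figure D4:**
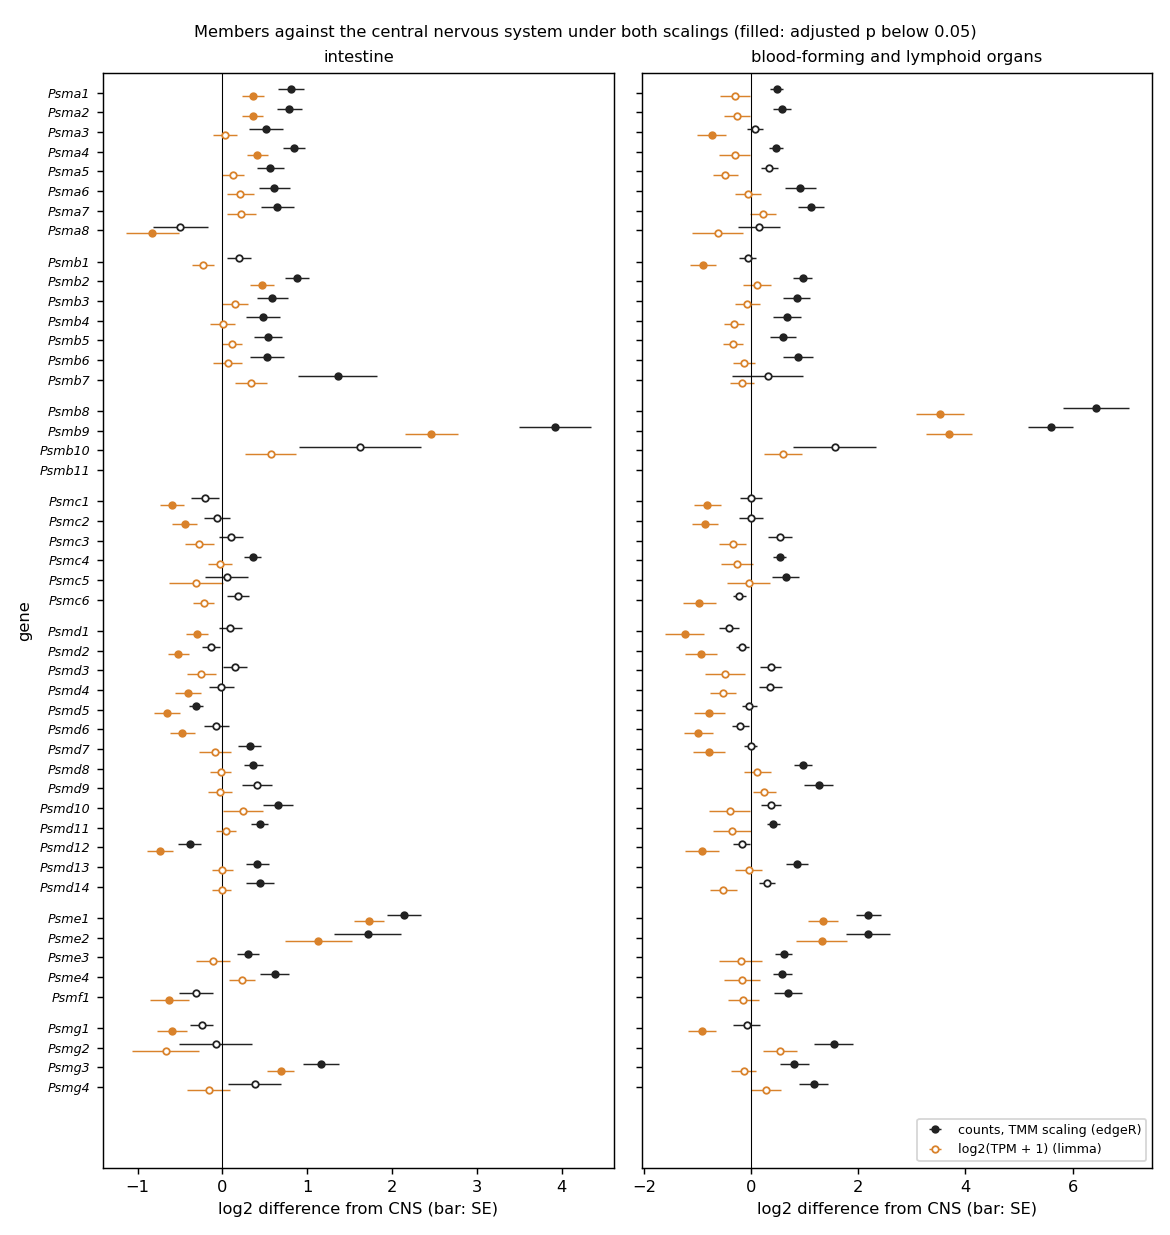
Log2 difference from the CNS (x axis, bars are SE) of each member (y axis, grouped by role) in the intestine (left) and the blood-forming class (right), on counts with TMM scaling (black) and on log2(TPM + 1) (orange); filled points have an adjusted p below 0.05. Psmb9, Psme1 and Psme2 in both panels, and Psmb8 in the blood-forming class where it was tested, are filled and right of 0 on both scales, while Psmb5 and Psmb6 of the blood-forming class are right of 0 on counts and left of it on log2(TPM + 1).

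Genes that work with the immunoproteasome were counted by the same test, with 35.2% of all genes higher in the intestine and 31.2% in the blood-forming class. Of 13 genes of class I antigen presentation, 10 were higher and 1 lower in the intestine, and 10 were higher and none lower in the blood-forming class. The peptide transporter genes Tap1 and Tap2 were higher by 3.45 and 3.6 (log2) in the intestine and by 4.42 and 4.59 in the blood-forming class. Erap1, which trims peptides, was higher by 3.95 and 2.95. Of 14 interferon response genes tested in each comparison, 11 were higher in the intestine and 13 in the blood-forming class, with Irf1, an activator of Psmb9 transcription, higher by 4.04 and 3.51. Of other proteasome partners, 5 were higher and 5 lower of 14 in the intestine and 3 higher and 6 lower of 15 in the blood-forming class. Among these the deubiquitinase Usp14 was lower by 1.07 and 1.16 in log2 units, at means of 22.3 TPM in the intestine, 18.96 TPM in the blood-forming class and 60.8 TPM in the CNS.

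Psmb9 and Tap1 are next to each other in the RefSeq gene order, followed by Psmb8 and, past 1 locus without a symbol, Tap2. Across the 59 libraries Tap1 was the gene most like Psmb9 of 18463 compared (Pearson r = 0.90 of log2(TPM + 1)), and Tap2 the gene most like Psmb8 (r = 0.82). Next for Psmb9 were Tnfrsf14, Ikbke, Ptpn6 and AI467606, at 0.847 to 0.869. Psmb8 and Psmb9 correlated at 0.68, and at 0.87 over the 57 libraries without pancreas. Psmb9 and Psmb10, which lie on separate loci, correlated at 0.15, and at 0.39 without pancreas. Psmb9 correlated with Psme1 at 0.62 and with Psme2 at 0.64, and the constitutive pair Psmb5 and Psmb6 at 0.86, falling to 0.71 without pancreas. These libraries share animals and differ in depth, and low genes are coarse at 1 or a few counts, so the correlations are descriptions only.

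**Figure D5:**
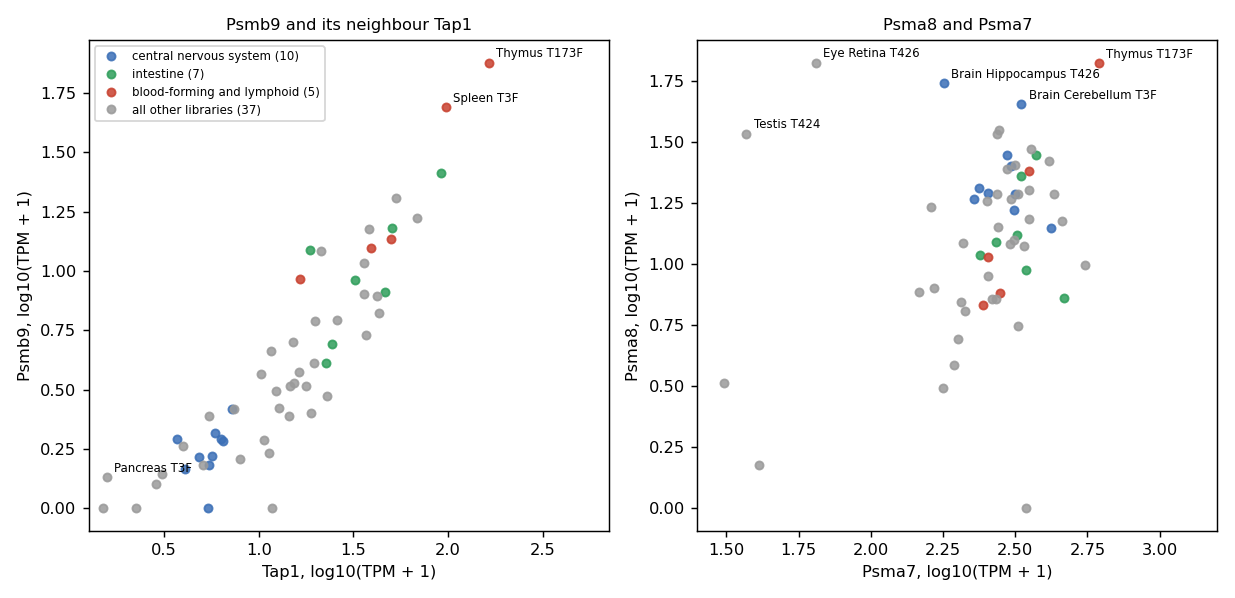
Left, Psmb9 (y axis) against Tap1 (x axis), and right, Psma8 (y axis) against Psma7 (x axis), all in log10(TPM + 1) with 1 point per library coloured by tissue class. Psmb9 and Tap1 are low together in the CNS and highest together in thymus (r = 0.90), while testis (33.1 and 36.1 TPM) and the T426 retina (65.8 and 63.6 TPM) have about as much Psma8 as Psma7.

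The thymus was the only organ with a high level of Psmb11. Its library had 950.9 TPM from 722 expected counts, against 46.4 TPM from 15 counts in pancreas of T173F and 8.76 TPM in the library labelled left lung lobe. Psmb11 made up 71.2% of the summed TPM of the alternative beta5 genes Psmb5, Psmb8 and Psmb11 in thymus, and at most 13.2% elsewhere. Psmb5 was not low there: 342.1 TPM against a median of 330.9 TPM over all libraries. The neighbouring gene of Psmb11 in the RefSeq order is Psmb5. The genes most like Psmb11 over the 59 libraries were Prss16, Ptcra, Pax1, Olfr1512 and Gbp8 (r from 0.744 to 0.775). Psmb11 had a median of 2 expected counts and was at 0 in 21 libraries, so the thymus library weighs heavily in these correlations.

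The thymus was set against the average of the remaining 47 sites, with the spread taken from the replicated sites. It is 1 library of T173F, assumed to vary like those sites, so the p-values carry no replicate check of the thymus itself. By edgeR at an adjusted p below 0.05, 5.77% of all genes were called, 5.42% higher and 0.349% lower. Of the 48 members 3 were called, all higher and all by at least 1 log2 unit, as was each gene of that background: Psmb11, higher by 9.82 ± 0.698 (log2, SE; adjusted p = 3.04e-07), Psmb9 by 4.16 ± 0.753 (adjusted p = 0.00258) and Psmb8 by 4.29 ± 1.11 (adjusted p = 0.0395). All 3 remained without the 8 libraries in doubt and without both pancreas libraries. The 8 thymic epithelium genes summed to 2670 TPM in this library, of which Psmb11, itself on that list, gave 950.9 TPM and Prss16, a serine protease of cortical epithelium, 891.7 TPM, and T cell genes to 19880 TPM. The medullary regulator Aire was at 123.9 TPM. Tap2 and Tap1 were higher there by 3.39 and 2.88 (log2).

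Psma8, the germ cell variant of Psma7, was not restricted to the testis. It was highest in retina of T426 (65.8 TPM), thymus (65.6 TPM), hippocampus of T426 (53.9 TPM) and cerebellum (44.2 TPM), then left retina of T3F (34.4 TPM), testis (33.1 TPM from 17 counts) and right retina of T3F (32.9 TPM). As a share of Psma7 plus Psma8 the order was different: 50.8% in retina of T426, 47.8% in testis, 23.2% in hippocampus of T426, 11.8% in cerebellum, 11.0% and 10.8% in left and right retina of T3F and 9.62% in thymus, against a median of 4.59%. Psma7 itself was 36.1 TPM in testis and 63.6 TPM in retina of T426, and 616 TPM in thymus, its highest value. The genes most like Psma8 over the 59 libraries were 4933430I17Rik, Mrgbp, Ccdc157, Cntrob and Phtf1 (r from 0.822 to 0.844). Some germ cell markers were present in the CNS: 4 passed the filter on low counts in the comparison with the intestine, all lower in the intestine. Of that list, Prm2 alone is given by library here, and it divides these libraries. Prm2 stood at 9211 TPM in testis, 5373 TPM in retina of T426 and 1955 TPM in hippocampus of T426, and at 0 in thymus, in cerebellum and in both retina libraries of T3F, which still had 65.6, 44.2, 34.4 and 32.9 TPM of Psma8.

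The testis is 1 library of T424, an animal with no other library, so organ and animal cannot be told apart, and its p-values assume the spread of the replicated sites. Against the average of the remaining 47 sites, 16.9% of all genes were called in testis by edgeR at an adjusted p below 0.05, 12.9% higher and 3.93% lower, each by at least 1 log2 unit. Of the 48 members 3 were higher: the inhibitor Psmf1 by 4.02 ± 0.556 (log2, SE; adjusted p = 0.000106), the lid subunit Psmd8 by 2.81 ± 0.555 (adjusted p = 0.00211) and the ATPase Psmc3 by 1.87 ± 0.560 (adjusted p = 0.0323). Psmf1 was at 64.6 TPM in testis, next at 42.1 TPM in retina of T426, against a median of 8.98 TPM. Psmd8 was at 489.3 TPM in testis and next at 330 TPM in thymus. Psma8 was higher by 2.46 (log2) but did not pass (adjusted p = 0.0724). It passed without both pancreas libraries (2.67, adjusted p = 0.0316), without the libraries in doubt (2.71, adjusted p = 0.0199) and with DESeq2-type size factors in edgeR (3.17, adjusted p = 0.016).

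Lower in testis were 2 members: Psmd5 by 2.79 in log2 units (adjusted p = 0.0462, from 4 expected counts; adjusted p = 0.0754 with DESeq2-type size factors) and the ATPase Psmc5 (adjusted p = 0.0052). Psmc5 had no count there and a median of 35.6 CPM in the other 58 libraries, at least 8.05-fold lower by the limit of 3 counts per library. The testis library is the shallowest of the series. Without the libraries in doubt 18 members and 33.2% of all genes were called in testis, and without both pancreas libraries 15 members and 30% of all genes. The 5 named here were among them each time.

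The pancreas had the highest immune shares of the series, and these rest on different genes in the 2 animals. In the pancreas of T3F the 32.6% came from Psmb10, at 32.9 TPM from 3262.5 expected counts, beside 44.1 TPM of Psmb5 and 24.8 TPM of Psmb6. Psmb8 was at 0 there and Psmb9 at 0.353 TPM. In the pancreas of T173F, a library of 1573234 expected counts, the 65.9% came from Psmb8, at 246.3 TPM from 83 counts. There Psmb9 had 1 count and Psmb10 was at 10.7 TPM. Of the transporter genes, Tap2 was at 99.7 TPM and Tap1 at 4.06 TPM in T173F, and at 0.679 TPM and 0.573 TPM in T3F. The 6 leukocyte markers summed to 1.91 TPM in T3F and 3.13 TPM in T173F, below each CNS library.

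Psmb10 reached its next highest levels in pancreas of T173F and in sciatic nerve of T426 (7.53 TPM), the library with 73350 TPM of acinar genes. The genes most like Psmb10 over the 59 libraries were Serpini2, Prss2, Ptf1a, G6pc2 and Cpb1 (r from 0.643 to 0.704), of which Prss2 and Cpb1 encode digestive enzymes and Ptf1a an acinar transcription factor. Only the 2 pancreas libraries reached 10 TPM of Psmb10, so they weigh heavily in these correlations. In the RefSeq gene order Psmb10 lies between Ctrl, a gene of the chymotrypsin family, and Lcat. Ctrl was listed at 8.02 TPM in pancreas of T3F and Ctrb1, another chymotrypsin gene, at 197300 TPM. Whether reads of a neighbouring gene enter the Psmb10 value was not tested.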

How the data were processed

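PolyA RNA-seq libraries of 59 samples were analysed from 2 deposited tables. The authors deposited expected counts per gene and, separately, TPM values per gene; per the submitters' processing notes these come from RSEM with Bowtie 0.12.8, and the genome build is not given in the sources used here. Depth ran from 678819 to 41309569 expected counts. For the fits these were rounded, and both retina libraries of T3F were added together, leaving 58 libraries.

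Counts were tested with edgeR 4.0.16 in R 4.3.3 (TMM, filterByExpr, quasi-likelihood test, Benjamini-Hochberg adjustment over all genes tested, threshold 0.05). DESeq2 1.42.0 and limma 3.58.1 on log2(TPM + 1) were alternatives, as were other size factors, no filter, a replicate block, 1 library left out in turn, libraries of T3F only, and the omission of 8 libraries in doubt. The limma fit, library totals alone and the omission of both pancreas libraries, or of spleen and thymus, were chosen after seeing the data. The fits were tested on simulated data. Shares were compared by exact permutation tests. Limits from a count of 0 are 3 counts and cover counting error only.

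The animal, named in the labels, pairs 7 sites of T3F and T426: deviations of their same-animal libraries correlated from -0.0424 to 0.819 over 21 pairs (median 0.146). The members and lists were chosen with earlier results of these data known. Every member could be named; values by library were to be given for Psmb5 to Psmb11, Psma7, Psma8, Psme1 and Psme2, and of other members the highest and lowest of a role, of other lists at most 4 genes by fold, and the 5 genes most like each variant. Members stressed outside that rule, such as Psmd13 and Psme4, were chosen after their values were seen. RefSeq's gene table (assembly mArvNil1.pat.X) served only for names and neighbours.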

Additional observations from a re-analysis of the deposited data

Results flagged for a closer look

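In 36 groups of values (12 readouts in 3 tissue classes), 4 held a library far from the others by Dixon's criterion, and chance flags about 1 in 20 groups. Psmb6 in duodenum of T426 was 552 TPM, where the next of the 7 intestine libraries was 314.8 TPM. Psmb11 in midbrain of T3F was 6.81 TPM, from 10 expected counts, where the next of the 10 CNS libraries was 2.79 TPM. Psmb11 in thymus was 950.9 TPM and the next of the 5 blood-forming libraries 2.55 TPM. Psma8 in thymus was 65.6 TPM and the next 22.9 TPM.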

How the results depend on the processing

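Both differences in immune catalytic share kept their direction and p below the threshold under all alternatives run. Leaving out 1 library gave 1.98 to 2.52 points (intestine) and 5.86 to 8.85 points (blood-forming); with the replicate block, labels permuted within animals, the exact permutation p was 0.000699 and 0.00227. The replicate block gave 28 members called in the intestine (25 shared; 71.4% of all genes), 27 in the blood-forming class (63.9%) and 4 among the 10 sites (38.3%), where DESeq2 gave 23 (62.3%). Leaving out 1 library gave 4 to 23 members among the 10 sites (31.6% to 70.2% of all genes), 21 to 28 in the intestine (68.7% to 71.2%) and 23 to 28 in the blood-forming class (57.3% to 64.5%). With a minimum of 1 log2 unit the intestine kept 5 and the blood-forming class 8 members, and limma on log2(TPM + 1) called 16 there (56.2% of all genes). In testis the count of 5 was 8 with DESeq2-type size factors (21.1% of all genes), 18 without the libraries in doubt (33.2%) and 15 without pancreas (30%). Of the members followed under every alternative, a subset of the 6 and 16 with values below 0 on log2(TPM + 1), the sign turned there, with no call, for Psmd8 (-0.0228) and Psme3 (-0.11) in the intestine and for Psmb5 (-0.34), Psmb6 (-0.13), Psmc5 (-0.0406), Psmf1 (-0.14) and Psme3 (-0.20) in the blood-forming class; the cause was not tested. For thymus and testis, DESeq2, the replicate block and leaving out 1 library were not run. Low depth limits Psmb8 and Psmb11, whose median expected counts were 2.06 and 2.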
